A study of Oryza sativa with 9 samples.

Results

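In leaves of rice plants, 47 genes were listed at 0 TPM (a length-scaled relative abundance of transcripts) in all 3 wild-type (WT) libraries and were on in both lines of the double mutant osatxr5c;osatxr6kd. A gene was counted as on in a line when its mean over the 3 libraries of that line was at least 1 TPM. The 47 genes were chosen by these values from a table of 55986 gene identifiers, of which they make up 0.0839%. Their difference from WT is therefore a matter of selection. It is described without a test.

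The WT libraries are titled NP and the genotype label WT. The mutant libraries carry the genotype label osatxr5c;osatxr6kd, and their titles divide them into lines osatxr5c;osatxr6kd-1 and osatxr5c;osatxr6kd-2, called line 1 and line 2 here. Whether both lines carry the same alleles is not stated. Each group held 3 libraries of total leaf RNA from plants aged 40 days that were grown in paddy fields, with no treatment named. The labels do not say how the alleles were made, whether a line descends from 1 plant, or whether a replicate number stands for a separate plant, so p-values measure the spread between these libraries, which may be technical.

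ATXR5 and ATXR6 are plant-specific enzymes that methylate histone H3K27. In Arabidopsis they place the monomethyl form of this mark on newly made chromatin. Arabidopsis mutants with reduced activity of both enzymes transcribe heterochromatic elements that are otherwise silent, and they over-replicate heterochromatin. The data cannot say how the 47 genes are marked, because chromatin was not measured in these libraries.

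Every identifier of the 47 genes belongs to the LOC_Os series of the rice genome annotation, in which the first digits give the chromosome and the last digits a serial number along it. None of the 47 matched a record of the 39387 rice genes in the reference table, which uses other identifiers, and the deposited table does not pair identifiers with names. The genes are thus given by identifier, with no name, function or sequence, and the level of the targeted genes OsATXR5 and OsATXR6 and of leaf marker genes was not analysed here. Whether any of the 47 genes, LOC_Os02g03030 included, is itself one of the targeted genes was not tested.

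Library depth is unknown, because TPM keeps none. The lowest value above 0 lay between 0.303 and 0.327 TPM in the 9 libraries, so a listing at 0 means a level below an edge of about that height, or a failed estimate. Unstable zeros did occur in the table. For 9 identifiers, 1 library of a group was at 0 while another reached 5 TPM or more. In bulk leaf RNA, fewer cells that express a gene and less RNA per cell cannot be told apart.

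Most of the 47 genes were weakly transcribed in the mutant, and a few were strong. Means over the 6 mutant libraries ran from 1.04 to 155 TPM with a median of 2.21 TPM. The median was 13.9 TPM over the 18860 rows of the table that were on in both lines. Of the 47 genes, 31 were below 3 TPM, which is 66.0%, against 14.9% of those 18860 rows. Above that, 9 genes reached 10 TPM or more and 1 gene exceeded 100 TPM. All 47 genes were above 0 in all 6 mutant libraries, and the lowest of the 282 mutant values was 0.412 TPM. In 35 genes every mutant library was at 1 TPM or more. The other 12 genes dipped below that level in at least 1 library, which accounted for 18 values.

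**Figure D1:**
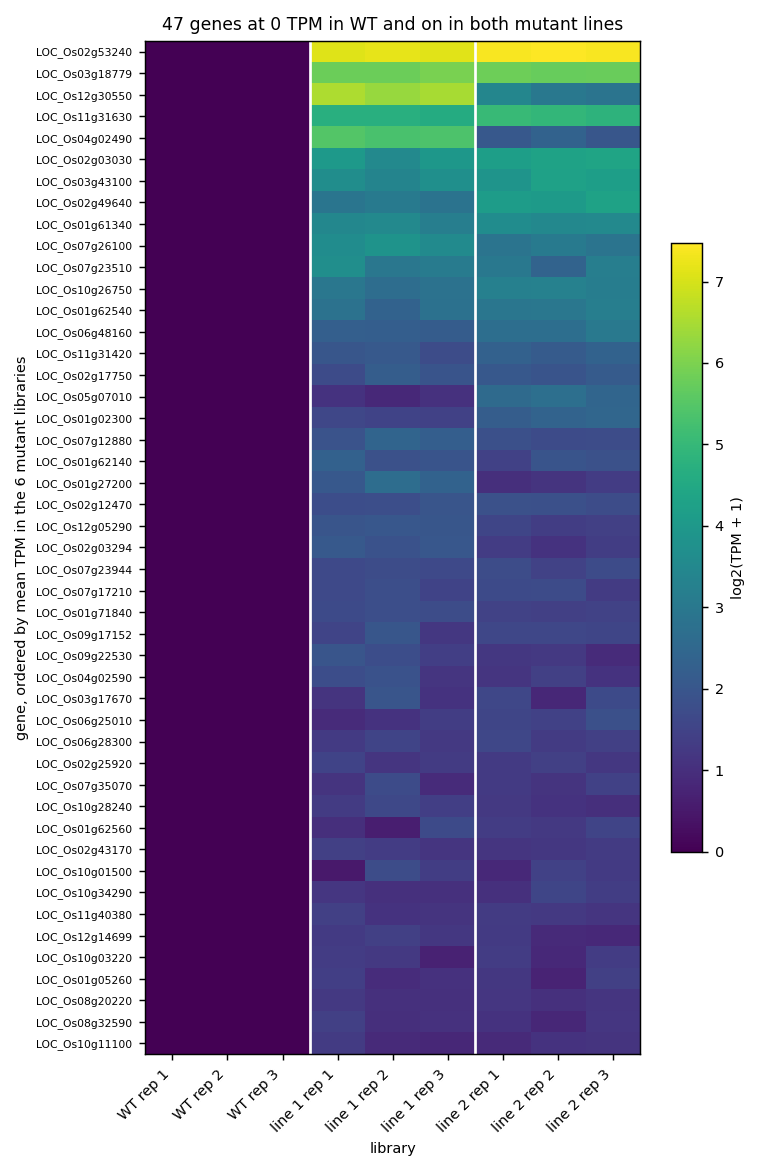
Levels of the 47 genes (rows, ordered by their mean in the mutant) in the 9 libraries (columns), coloured by log2(TPM + 1). The 3 WT columns are at 0 by the choice of genes, and the mutant columns are all above 0. The top 9 rows have means of 10 TPM or more in the mutant, and among them LOC_Os12g30550 and LOC_Os04g02490 are much weaker in line 2.

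Together the 47 genes added 0 TPM to each WT library, 484 to 499 TPM to the libraries of line 1 and 423 to 425 TPM to those of line 2. These sums are 0.0484% to 0.0499% and 0.0423% to 0.0425% of a library. The 3 highest genes supplied 56.4% of the summed mean level. The median gene of the set lay between 2.22 and 2.63 TPM in the libraries of line 1 and between 1.97 and 2.19 TPM in those of line 2.

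The strongest gene was LOC_Os02g53240 on chromosome 2. Listed at 0 in each WT library, it was at 136, 144 and 138 TPM in line 1, against 169, 176 and 167 TPM in line 2. The lines did not overlap, and all libraries of line 2 were the higher ones. Its difference between the lines was 0.29 ± 0.06 (SE) on the log2(TPM + 1) scale, line 2 minus line 1, with a limma adjusted p of 0.0042.

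LOC_Os03g18779 on chromosome 3 was the second strongest and the most even of the strong genes. It was at 54.6, 54.8 and 61.4 TPM in line 1, against 55.7, 52.7 and 53.3 TPM in line 2. The ranges overlapped, and the difference of -0.08 ± 0.08 (SE) on the log2(TPM + 1) scale did not pass the test, with a limma adjusted p of 0.55.

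LOC_Os12g30550 on chromosome 12 and LOC_Os04g02490 on chromosome 4 were strong in line 1 and weak in line 2. The first was at 93.3, 79.3 and 89.4 TPM in line 1, against 9.78, 6.90 and 6.30 TPM in line 2. The second was at 43.1, 39.3 and 40.9 TPM in line 1, against 3.15, 4.13 and 3.02 TPM in line 2. In both genes every library of line 1 stood far above every library of line 2, while line 2 itself was clear of the lowest listed levels. The ratio of the line means was 11.4 for LOC_Os12g30550 and 12.0 for LOC_Os04g02490.

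LOC_Os11g31630 on chromosome 11 was at 25.2, 25.2 and 23.4 TPM in line 1, against 31.6, 29.8 and 27.3 TPM in line 2. Although the libraries of the 2 lines did not overlap, its difference of 0.25 ± 0.09 (SE) had a limma adjusted p of 0.061. LOC_Os02g03030 on chromosome 2 was at 15.3, 10.5 and 14.6 TPM in line 1, against 17.3, 18.7 and 19.6 TPM in line 2. LOC_Os03g43100 on chromosome 3 was at 11.6, 9.40 and 12.1 TPM in line 1, against 13.6, 18.4 and 17.3 TPM in line 2. Both genes were higher in every library of line 2 than in any of line 1.

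LOC_Os02g49640 on chromosome 2 was at 6.48, 7.46 and 6.15 TPM in line 1, against 16.4, 15.9 and 18.8 TPM in line 2. LOC_Os07g26100 on chromosome 7 had the opposite order, with 11.4, 13.3 and 10.9 TPM in line 1 and 6.29, 7.31 and 6.28 TPM in line 2. The lines were fully apart in each. LOC_Os01g61340 on chromosome 1 was at 9.96, 10.5 and 8.22 TPM in line 1, against 11.4, 10.2 and 10.5 TPM in line 2, and its lines overlapped.

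**Figure D2:**
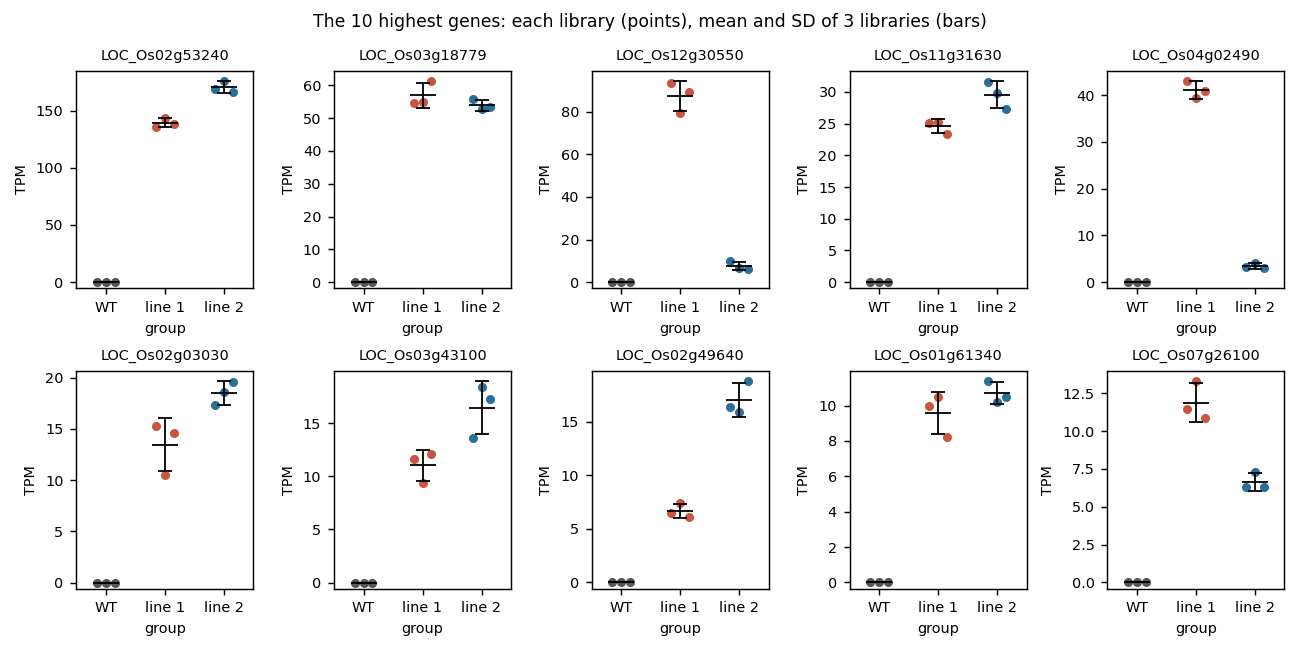
TPM of the 10 genes with the highest means in the mutant, by library (points), with the mean and SD of the 3 libraries of each group (bars), on linear axes. WT is at 0 throughout, and LOC_Os12g30550 and LOC_Os04g02490 are high in line 1 and low in line 2.

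Near the lower threshold the genes were only just distinguishable from those left out. The 3 genes just inside it were LOC_Os05g07010, LOC_Os12g14699 and LOC_Os10g11100, whose lower line means were 1.0, 1.02 and 1.04 TPM. LOC_Os10g11100, the weakest of the 47 genes, was at 1.46, 0.866 and 0.789 TPM in line 1, against 0.843, 1.12 and 1.17 TPM in line 2. The 3 identifiers just outside were LOC_Os11g08200, LOC_Os07g06834 and LOC_Os10g13970, with lower line means of 0.995, 0.992 and 0.959 TPM. One of these was far from weak in the other line. LOC_Os07g06834 was at 65.2, 63.0 and 66.2 TPM in line 1, against 1.60, 1.0 and 0.377 TPM in line 2. Between 0.8 and 1 TPM on the lower line mean lay 13 identifiers silent in WT, and 10 of the 47 genes lay between 1 and 1.2 TPM.

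A further 17 identifiers were below 0.5 TPM in every WT library without being at 0 in all of them and were on in both lines. In 7 of these a single WT library was above 0. Their median level in the mutant was 2.09 TPM, and the highest was 10.4 TPM.

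The requirement for silence in WT was met by 32943 identifiers, of which 31162 were at 0 in all 9 libraries. A mean of at least 1 TPM was reached by 134 of them in line 1 and by 74 in line 2. The 47 genes are 35.1% of the first list and 63.5% of the second. Both lists use the same WT libraries. Of the 87 identifiers on in line 1 that fell outside the 47 genes, 54 were at 0 in all libraries of line 2. Of the 27 on in line 2 that fell outside, 6 were at 0 in all libraries of line 1.

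The same rule was applied with a different silent group. Line 1 was silent at 2 of the 18781 identifiers that were on in WT and in line 2, and line 2 was silent at 2 of the 18591 that were on in WT and in line 1. Silence in WT was thus found at 0.249% of the genes on in the other groups, against 0.0106% for line 1 and 0.0108% for line 2. In the reverse direction, 3 identifiers were on in WT and at 0 in all 6 mutant libraries. These counts describe the table and were not tested. Swapping the silent group is not symmetric, since both mutant lines share a genotype label. Every WT library also listed fewer identifiers above 0 than any mutant library did. The largest WT count was 21885 (replicate 1), whereas the smallest mutant count was 22170 (replicate 3 of line 1). Whether this difference bears on the shares was not tested.

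Line 2 was next compared with line 1, since the choice of genes did not use their difference. It did require at least 1 TPM in each line, which limits the ratio that a weak gene can show. Line 1 was the higher line in 24 genes and line 2 in 23.

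**Figure D3:**
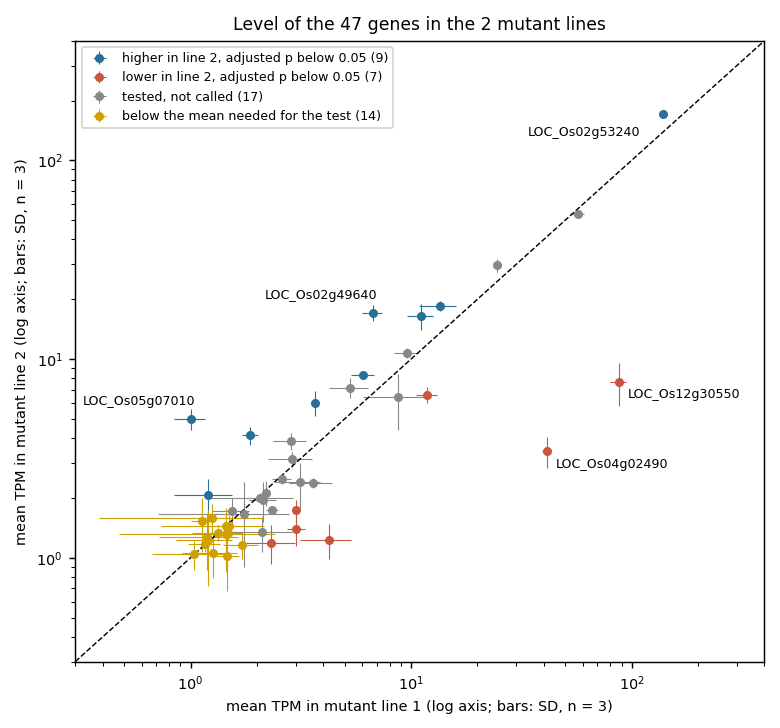
Mean TPM of the 47 genes in line 1 (horizontal) and line 2 (vertical), both on log axes, with SD over 3 libraries as bars and the line of equal levels dashed. LOC_Os12g30550 and LOC_Os04g02490 lie far below the dashed line and LOC_Os05g07010, itself a weak gene, above it, while most weak genes gather near it. The required 1 TPM in each line limits how far from it a weak gene can lie.

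The lines differed by less than 1.5 times in 33 of the 47 genes, by 1.5 to 2 times in 7 and by at least 2 times in 7. The last group is 14.9% of the set, against 2.64% of the 18813 other identifiers that were on in both lines. Weak genes vary more, so the shares are also given by level. Below a mean of 3 TPM the lines differed by at least 2 times in 4 of 31 genes (12.9%), against 3.34% of 2781 other identifiers. At 3 TPM or more they did so in 3 of 16 genes (18.8%), against 2.51% of 16032. The median ratio of the higher to the lower line was 1.2 for the weaker genes of the set and also 1.2 for other identifiers of that level. For the stronger genes it was 1.37, against 1.11. The libraries of the 2 lines did not overlap in 22 of the 47 genes (46.8%), against 38.4% of the other identifiers on in both lines.

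Spread between the libraries of a line was close to that of other genes at the same level. Among genes with a line mean of 1 to 3 TPM, the median coefficient of variation in line 1 was 20.1% for 29 genes of the set and 18.7% for 3346 identifiers of the table. In line 2 it was 17.6% for 29 genes of the set and 17.3% for 3266 identifiers. LOC_Os10g01500, at 0.412, 2.35 and 1.58 TPM in line 1, had the lowest mutant value of the set and was named for that after its values were seen.

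For the test of the difference, limma was fitted on log2(TPM + 1) to all genes averaging 1 TPM or more across the 9 libraries, and p-values were adjusted over all 19345 of them. Because WT adds nothing to the mean of these genes, 33 of the 47 passed this filter and 14 did not. The 14 had mutant means between 1.04 and 1.47 TPM, and the weakest of the 33 had 1.63 TPM. Of the 33 tested genes, 16 passed an adjusted p of 0.05, which is 48.5%, against 22.0% of all tested genes. These shares were not matched by level. With WT at 0, a weak gene could pass the filter through its higher line alone, which favours genes whose lines differ. Without a minimum mean all 47 genes were tested and the same 16 passed, which is 34.0%, against 18.0% of all genes then tested. Those 24824 genes include ones under 1 TPM in a line, which the choice of the 47 genes excludes. Their calls numbered 4458, against 4256 with the filter, so the 2 shares do not compare genes of like level. In the filtered test, line 2 was higher in 9 of these genes and lower in 7. The corresponding shares of all tested genes were 15.2% and 6.80%. The split by direction moved with scaling, to 6 higher and 9 lower after quantile normalization and to 6 higher and 8 lower after median-ratio scaling. The shares of all tested genes by direction were not counted under those scalings. Zeros in WT, fixed by the choice of genes, add no spread and so lower the estimate of spread in the fit. The SE and p-values of single genes of the set come from that fit unless stated. With only the 2 mutant lines fitted, 16 genes passed as well, 15 of them the same, against 23.2% of all tested genes. The limma adjusted p of LOC_Os12g30550 was then 9.9e-09, against 3.0e-10 with WT, while that of LOC_Os02g53240 was 0.0012, against 0.0042. LOC_Os06g25010 was lost there, with a limma adjusted p of 0.0503, and LOC_Os11g31630 was gained, with 0.0256.

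Differences of at least 1 on the log2(TPM + 1) scale accounted for 5 of the 16 calls. Over all tested genes, 437 of the 4256 calls were of that size, which is 2.26% of the genes tested. The median absolute difference was 0.39 for the 33 genes and 0.15 for all tested genes, while the median standard errors were 0.14 and 0.10. With sign, the median difference was -0.03 for the 33 genes and 0.07 for all tested genes. Both moved with scaling. After quantile normalization they were -0.099 and 0.0037, and after median-ratio scaling -0.077 and 0.0037.

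The falls from line 1 to line 2 were led by LOC_Os12g30550, which fell by 3.37 ± 0.13 (SE) with a limma adjusted p of 3.0e-10. LOC_Os04g02490 fell by 3.26 ± 0.11 (SE), with a limma adjusted p of 1.1e-10. LOC_Os01g27200 on chromosome 1 was at 3.18, 5.39 and 4.14 TPM in line 1, against 1.02, 1.16 and 1.5 TPM in line 2, and it fell by 1.22 ± 0.17 (SE) with a limma adjusted p of 9.3e-05. These 3 genes were also the ones whose lines were farthest apart among those higher in line 1. LOC_Os07g26100 fell by 0.75 ± 0.12 (SE), with a limma adjusted p of 0.00030. LOC_Os02g03294 on chromosome 2 was at 3.23, 2.69 and 3.11 TPM in line 1, against 1.51, 1.11 and 1.57 TPM in line 2. It fell by 0.75 ± 0.14 (SE), with a limma adjusted p of 0.0015.

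Among the rises, LOC_Os05g07010, the only gene of the set on chromosome 5, came first. It was at 1.12, 0.817 and 1.07 TPM in line 1, against 5.01, 5.59 and 4.36 TPM in line 2, and it rose by 1.58 ± 0.14 (SE) with a limma adjusted p of 1.4e-06. This gene is also the one nearest to the threshold in line 1. LOC_Os02g49640 rose by 1.23 ± 0.11 (SE), with a limma adjusted p of 2.2e-06. LOC_Os01g02300 on chromosome 1 was at 2.04, 1.81 and 1.74 TPM in line 1, against 3.65, 4.25 and 4.48 TPM in line 2, and it rose by 0.84 ± 0.13 (SE) with a limma adjusted p of 0.00033. LOC_Os06g48160 on chromosome 6 was at 3.81, 3.71 and 3.52 TPM in line 1, against 5.48, 5.55 and 7.05 TPM in line 2. The gene rose by 0.58 ± 0.13 (SE), with a limma adjusted p of 0.0045. In all 3 of these weaker genes the lines were fully apart.

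LOC_Os03g43100 rose by 0.53 ± 0.13 (SE), with a limma adjusted p of 0.0088, which was 0.056 without replicate 2 of line 2. LOC_Os02g03030 rose by 0.45 ± 0.13 (SE), with a limma adjusted p of 0.022. That call was lost with a pseudocount of 0.1, at a limma adjusted p of 0.067, under both other scalings, with adjusted p of 0.062 and 0.063, and without replicate 2 of line 1, with an adjusted p of 0.090. It was lost as well without replicate 2 or 3 of line 2, with adjusted p of 0.072 and 0.086.

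**Figure D4:**
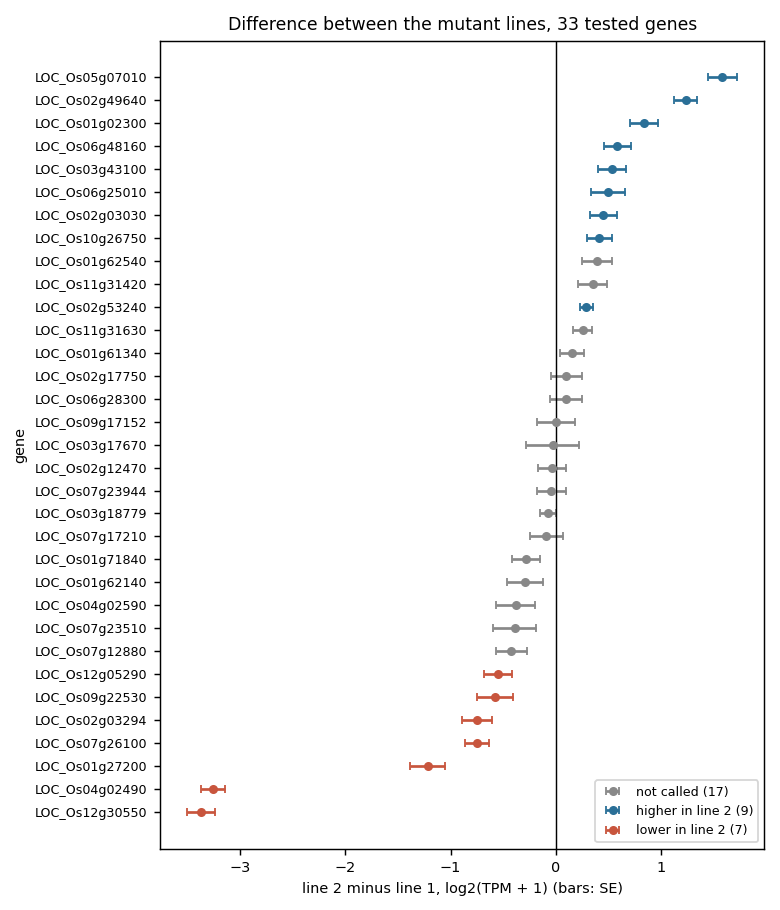
Difference between the lines (line 2 minus line 1, log2(TPM + 1), with SE bars) for the 33 tested genes, ordered by size. The 7 genes lower in line 2 and the 9 genes higher in line 2 at an adjusted p under 0.05 are coloured, and the 17 others are grey.

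The 47 genes were spread over all 12 chromosomes. Chromosomes 1 and 2 held 8 each, chromosomes 7 and 10 held 6 each, and chromosome 5 held 1. Per 1000 identifiers of a chromosome the number ran from 0.219 on chromosome 5 to 1.71 on chromosome 10, against 0.842 for all chromosomes. No gene of the set stood directly next to another in identifier order. The closest pair was LOC_Os01g62540 and LOC_Os01g62560 on chromosome 1, with 1 locus between them. That locus, LOC_Os01g62550, was also at 0 in WT. It was at 0.783, 0.778 and 0.518 TPM in line 1, against 0.824, 1.76 and 0.829 TPM in line 2, under the threshold in line 1. LOC_Os04g02490 and LOC_Os04g02590 on chromosome 4 stood 9 loci apart. These pairs and the locus between the first were singled out after their positions were seen.

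The loci directly beside the 47 genes were not chosen by their own values, so their change against WT could be set beside the whole table. This comparison was added after the data were seen. Of the 93 adjacent loci, 41 were at 0 in all 9 libraries (44.1%), against 55.5% of all LOC_Os identifiers and 38.5% of the loci beside the other genes on in both lines. A mean of at least 1 TPM in WT was found in 34 (36.6%), against 34.1% of all LOC_Os identifiers and 48.9% of the loci beside the other genes on in both lines.

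All 34 of these loci were tested. In 5 of them (14.7%) both lines were higher than WT at an adjusted p of 0.05 in limma's tests, against 5.56% of all tested genes with a WT mean of at least 1 TPM. Both lines were lower than WT in 0 of the 34, against 4.79%. Under quantile normalization, median-ratio scaling or a constant prior variance, 1 was lower. Next to the other genes that were higher in both lines, 132 of 1078 loci with that WT level (12.2%) were higher in both lines, so the share beside the 47 genes was close to that beside other raised genes.

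The filter also let in 5 adjacent loci with a WT mean below 1 TPM, which could pass it only through their mutant level. All 5 were higher in both lines, and the filter favoured that outcome. With them, 10 of 39 tested adjacent loci (25.6%) were higher in both lines, against 6.26% of all tested genes, and 0 were lower in both, against 4.67%. Whether reads of overlapping or adjoining loci were counted for both was not tested, as the sources used here give no coordinates and no counting rule.

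Among the tested adjacent loci, LOC_Os02g03280, next to LOC_Os02g03294, had the largest change against WT in line 1. In line 2 the largest was 2.09 ± 0.09 (SE), at LOC_Os11g31430. LOC_Os02g03280 was at 77.2, 67.2 and 70.9 TPM in WT, at 835, 723 and 781 TPM in line 1, against 226, 214 and 218 TPM in line 2. The 3 groups were fully apart, with changes against WT of 3.42 ± 0.06 (SE) in line 1 and 1.60 ± 0.06 (SE) in line 2 and limma adjusted p of 5.6e-14 and 1.8e-10. Line 1 was the higher line at this locus, as it was at LOC_Os02g03294.

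On chromosome 4, LOC_Os04g02580, next to LOC_Os04g02590, was at 0.336, 0.343 and 0.410 TPM in WT. It was at 5.37, 4.32 and 5.02 TPM in line 1, against 1.91, 2.52 and 1.70 TPM in line 2. The groups did not overlap here either. On the other side of this stretch, LOC_Os04g02500, next to LOC_Os04g02490, was at 17.2, 20.4 and 18.6 TPM in WT, at 19.3, 17.3 and 18.2 TPM in line 1, against 19.7, 21.5 and 17.5 TPM in line 2, with all groups overlapping.

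LOC_Os11g31430, next to LOC_Os11g31420, was at 2.68, 3.30 and 3.18 TPM in WT, at 13.4, 15.6 and 14.5 TPM in line 1, against 16.3, 15.9 and 16.6 TPM in line 2. LOC_Os01g27210, next to LOC_Os01g27200, was at 31.6, 31.0 and 26.0 TPM in WT, at 101, 57.0 and 85.4 TPM in line 1, against 49.1, 42.5 and 42.4 TPM in line 2. Both mutant lines were above WT in every library of each. LOC_Os12g30555, next to LOC_Os12g30550, was at 16.0, 21.7 and 22.0 TPM in WT, at 33.0, 34.0 and 34.0 TPM in line 1, against 31.3, 28.6 and 36.2 TPM in line 2. Its lines overlapped, whereas those of LOC_Os12g30550 differed by 11.4 times. In 8 of the 10 pairs of a raised locus and a gene of the set, the line with the higher mean was the same in both. Over all tested adjacent loci it was so in 23 of 39 pairs, which include these 10. Line means that were close counted in full, and 5 of the 10 raised loci passed the filter only through their mutant level. The order was not tested. The adjacent loci described here were picked after their values were seen, and they are not ranked by size. LOC_Os09g17146 and LOC_Os01g02290, for example, changed more in both lines than LOC_Os12g30555, and their values are not given.

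**Figure D5:**
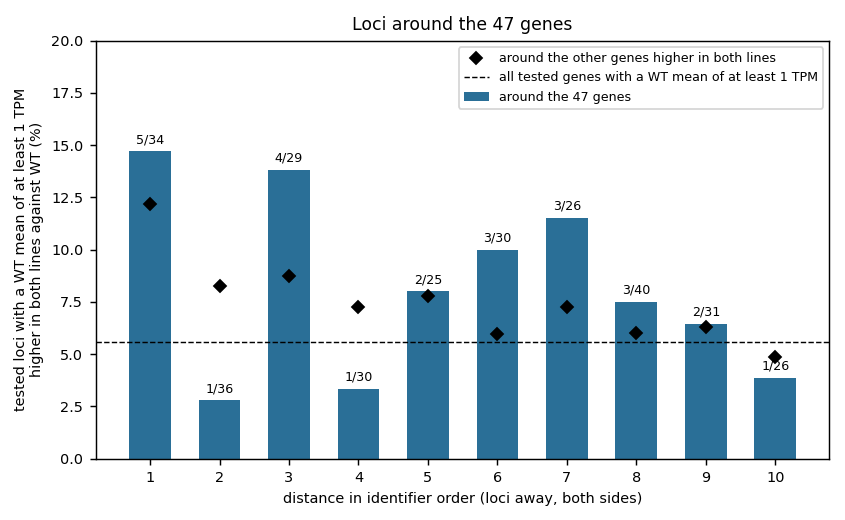
Share of tested loci with a WT mean of at least 1 TPM that were higher than WT in both lines, by distance in identifier order from the 47 genes (bars, with counts above) and from the other genes higher in both lines (diamonds), with the share of all tested genes of that WT level dashed. The bar at distance 1 stands at 14.7%, near the diamond at 12.2%, and the bars farther out lie on both sides of the dashed line at 5.56%.

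Farther from the 47 genes the share did not fall evenly. Among loci with a WT mean of at least 1 TPM it was 2.78% (1 of 36) at a distance of 2 loci, 13.8% (4 of 29) at 3 loci and 3.33% (1 of 30) at 4 loci. At 2 loci 5 of the 36 (13.9%) were lower in both lines, against 4.79% of all tested genes of that WT level. Over distances of 2 to 5 loci together, 8 of 118 tested loci (6.78%) were higher in both lines and 6 (5.08%) were lower. Over 6 to 10 loci, 11 of 149 (7.38%) were higher and 4 (2.68%) were lower. The counts at each distance are small.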

How the data were processed

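RNA sequencing libraries of rice leaves were analysed from 1 table that the authors deposited as TPM values, with 1 column for each of the 9 libraries, and each column sums to 1000000. The submitters' processing notes name fastp 0.20.1, HISAT2 2.1.10 and DESeq2 1.26.0, with no role. The program that made the TPM, the genome build, the annotation and the strandedness are not given in the sources used here. Depth is unknown, so the precision rests on the spread between 3 libraries per group. Values of genes with near-identical copies or overlapping neighbours are uncertain.

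Groups came from the sample titles. The 47 genes and the lists used with them were chosen with earlier results of these data known. Tests used log2(TPM + 1) and limma 3.58.1 (R 4.3.3). That scale understates the change of weak genes. All 9 libraries entered 1 model of 3 group means, with a variance trend, two-sided tests and Benjamini-Hochberg adjustment over the 19345 genes that averaged 1 TPM or more. The threshold was an adjusted p of 0.05. A permutation test of 3 against 3 libraries cannot give a p below 0.1, so none was used for single genes.

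Genes named are the 10 highest in the mutant, the 5 largest significant rises and falls between the lines, those nearest the threshold and those next to each other in identifier order, and exceptions are marked. Gene classes and leaf markers had been planned by name and were left out because no identifier matched. Alternatives were other pseudocounts, filters, scalings, prior variance, samples in the fit, a replicate block, leaving out each library, and other thresholds for choosing the genes.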

Additional observations from a re-analysis of the deposited data

Results flagged for a closer look

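The lines share a genotype label, and the comparison of line 2 with line 1 asks whether their contrasts against WT differ. It was passed by 16 of the 33 tested genes, at limma adjusted p-values under 0.05. Among the named genes, the differences on the log2(TPM + 1) scale, line 2 minus line 1, were -3.37 for LOC_Os12g30550, -3.26 for LOC_Os04g02490, -1.22 for LOC_Os01g27200, -0.75 for LOC_Os07g26100 and -0.75 for LOC_Os02g03294. They were 0.29 for LOC_Os02g53240, 0.45 for LOC_Os02g03030, 0.53 for LOC_Os03g43100, 0.58 for LOC_Os06g48160, 0.84 for LOC_Os01g02300, 1.23 for LOC_Os02g49640 and 1.58 for LOC_Os05g07010. The labels give no batch, so a batch that coincided with a line cannot be told apart from the line.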

How the results depend on the processing

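The number of genes chosen depends on the threshold in the mutant lines. It was 110 at a mean of at least 0.5 TPM per line, 20 at 2 TPM and 12 at 5 TPM, 35 with at least 1 TPM in all 6 mutant libraries, and 64 with WT below 0.5 TPM in place of 0. Leaving out 1 library at a time gave 45 to 53 genes. The genes called between the lines numbered 11 to 20 under the alternatives that kept the filter and all libraries, 16 without the filter, and 12 to 17 with 1 library left out. A minimum mean of 5 TPM left 11 of the 47 genes, of which 7 were called, 4 higher and 3 lower in line 2, with a median difference of 0.15. It also left 5 raised adjacent loci. These smaller counts come with the fewer genes tested. With 1 library left out, 5 to 10 genes were higher in line 2, the lowest without replicate 2 of line 2, and 6 to 8 were lower, while the median difference ran from -0.089 (without replicate 1 of line 2) to 0.095 (without replicate 2 of line 1). Raised adjacent loci then numbered 8 to 10, or 4 to 6 among those with a WT mean of at least 1 TPM, and lowered ones 0 to 1. In both sets 1 was lowered under quantile normalization, under median-ratio scaling and under a constant prior variance.

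A replicate block gave 16 genes called between the lines, the same 16, and 12 adjacent loci were raised, 7 of them with a WT mean of at least 1 TPM. Libraries with the same number deviated from their group means with a correlation of 0.0116 to 0.212 over 9 pairs, so the numbers were not taken to pair the libraries. In 15 of 18 comparisons a library correlated best with the library of its own number in another group, which is a hint from the data and not from the design. Across the tested genes and alternatives no called difference changed sign. A call was lost at least once in 6 genes and gained at least once in 5, and 10 of the 16 calls were kept in every alternative other than the minimum of 5 TPM. Unknown depth limits weak genes most, since levels below about 0.3 TPM are listed at 0.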
